A study of Homo sapiens with 6 samples.

Results

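The genes of the mitochondrial ribosomal proteins, whose symbols begin with MRPL or MRPS, were followed across 6 libraries of RNA crosslinked to Ago2 in human embryonic stem cells. Members were the rows of the count table whose name is MRPL or MRPS, then a number, then at most 1 letter from A to C, and 72 of the 16199 rows met this rule. The rule used names only, with no measured value. Of the 72, 71 carry the same symbol in RefSeq (GRCh38.p14), and MRPS36 is listed there as a synonym of KGD4. MRPL23, MRPL45, MRPL53, MRPS12, MRPS18B and MRPS24, which also encode mitochondrial ribosomal proteins, were not analysed here.

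The cells were H1, a widely used established embryonic stem cell line, in 3 states of DICER1, the gene of the enzyme that cuts microRNA precursors. The hemizygous cells carried Dicer-S1344L, a cancer hotspot change, and are written pm/fs in the protocol. The homozygous cells carried Dicer-S1344L as pm/pm, and the wild-type cells carried neither. All cells were grown for 10 days without doxycycline, irradiated 2 times with ultraviolet light at 254 nm and 150 mJ/cm2, and lysed for immunoprecipitation with an antibody against Ago2, the protein that holds microRNAs on their target RNAs. Each genotype had 2 libraries, numbered 1 and 2. The labels do not say whether these came from separate cultures or how many clones were used, so the p-values speak only to library-to-library spread, possibly technical. The counts are of RNA recovered with Ago2, so the amount of an RNA in the cells and the share of it bound by Ago2 cannot be told apart, and neither can fewer cells of a type and less RNA per cell.

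The mitochondrial ribosome makes the membrane proteins of the respiratory chain and ATP synthase that mitochondrial DNA encodes. Its ribosomal RNAs come from mitochondrial DNA, whereas its proteins are encoded in the nucleus, made on cytosolic ribosomes and imported. Part of these proteins descend from bacterial ribosomal proteins and part were added in the mitochondrial lineage, and inherited defects in several of them cause loss of oxidative phosphorylation in heart, liver or brain. Among the 72 genes, 48 encode proteins of the large subunit, grouped here as 28 with a counterpart in bacteria and 20 specific to mitochondria. Another 23 encode proteins of the small subunit, grouped as 14 with a bacterial counterpart and 9 specific to mitochondria. These origins were assigned from general knowledge and not from sequences. MRPL47, which has a bacterial counterpart, was placed among the large-subunit genes specific to mitochondria, so the values by origin hold for this grouping only. MRPS18A and MRPS30 are counted with the large subunit, where their proteins lie despite their symbols. MRPS36 is counted with neither, because its product links subunits of the 2-oxoglutarate dehydrogenase complex.

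Libraries held 39693194 and 51598026 counts in hemizygous cells, 46152759 and 39565897 in homozygous cells and 52924532 and 38164848 in wild-type cells. The 72 genes had between 130 and 9679 counts each in any library, so none was limited by a count near 0. Levels are given as CPM, a gene's counts brought to a common library size, here adjusted by the trimmed mean of M-values (TMM), and fold changes are on the log2 scale with their standard errors (SE). Markers of pluripotent cells were abundant, with 8 of 8 measured and a summed level of 7535 to 8874 CPM over the 6 libraries. The summed level of fibroblast markers was 631 to 863 CPM (5 of 8 measured) and that of neuroectoderm markers 417 to 575 CPM (5 of 7 measured). For mesendoderm it was 260 to 395 CPM (2 of 6 measured) and for trophoblast and amnion 6.35 to 10.5 CPM (1 of 6 measured). Some of these sums parted by genotype. Pluripotency markers summed to 8874 and 8418 CPM in hemizygous and 8556 and 8127 CPM in homozygous cells. Wild-type cells had 7735 and 7535 CPM, the lowest. Over wild-type cells 8 of the 8 were above 0 in hemizygous and 7 in homozygous cells, with 0 called by edgeR against 0% of rows. Fibroblast markers summed to 631 and 677 CPM in homozygous cells, against 826 and 706 CPM in hemizygous and 863 and 789.6 CPM in wild-type cells. Neuroectoderm markers summed to 429 and 417 CPM in homozygous cells, against 575 and 478 CPM in hemizygous and 504 and 458 CPM in wild-type cells. Homozygous libraries thus had the lowest sum for both lists. The 5 fibroblast markers were all below 0 for homozygous over wild-type cells. Of the 5 neuroectoderm markers 3 were above 0 and 2 below there (median 0.40), so their sum does not stand for most of them. Mesendoderm markers summed to 335 and 395 CPM in hemizygous and 379 and 363 CPM in homozygous cells, against 260 and 277 CPM in wild-type cells, which were the lowest. No measured marker was at 0 in any library, and the part of these cells in the results on ribosomal protein genes was not tested.

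The 72 genes lie on 21 chromosomes, and RefSeq promoter windows of 300 bases, from 250 before to 50 after the annotated start, were at hand for 65 of them. Both strands were searched for short core letters of 3 regulators of nuclear genes for mitochondria, and matches of different motifs could overlap: GCGCATG of NRF1, CCGGAAG of the ETS family, which includes the GABP factor, and AAGATGG of YY1. The ETS letters were in 27 of the 65 windows, or 41.5%, against 10.7% of all 27305 RefSeq promoters and 18.2% of the 10692 windows of protein-coding genes with a row. The YY1 letters were in 19 windows, or 29.2%, against 6.06% of all promoters and 7.17% of those with a row. The NRF1 letters were in 6 windows, or 9.23%, against 4.67% and 7.21%. At least 1 of the 3 was in 40 windows, or 61.5% of the 65, against 19.3% of all promoters, 28.7% of those of protein-coding genes with a row and 51.6% of those of cytosolic ribosomal protein genes. Windows of 64 cytosolic ribosomal protein genes held the ETS letters in 32.8% and the YY1 letters in 14.1%. These are matches of letters and not measured sites. The following 4 windows (GRCh38.p14) show the range. MRPL1 (chr4:77862580-77862879, plus strand) and MRPL41 (chr9:137551629-137551928, plus strand) are shown because they differed between the libraries' replicate numbers in opposite directions, and their windows held 51.7% and 80.7% G and C and none of the 3 motifs. MRPL52 (chr14:22829637-22829936, plus strand) is shown as the only one of the 65 windows with all 3 motifs. MRPL36 (chr5:1799788-1800087, minus strand) is shown because it was among the lower genes of both comparisons with wild-type cells. Capitals mark the matches. In MRPL52 they are, in order, NRF1 on the opposite strand, YY1 at 2 places and ETS on the opposite strand, and in MRPL36 the match is YY1 on the opposite strand.
MRPL1: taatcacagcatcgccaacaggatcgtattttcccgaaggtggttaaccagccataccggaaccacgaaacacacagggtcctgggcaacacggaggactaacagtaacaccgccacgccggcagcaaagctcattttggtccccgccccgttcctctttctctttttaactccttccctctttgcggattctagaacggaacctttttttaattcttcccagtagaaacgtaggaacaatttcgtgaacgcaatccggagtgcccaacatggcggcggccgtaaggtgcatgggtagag
MRPL41: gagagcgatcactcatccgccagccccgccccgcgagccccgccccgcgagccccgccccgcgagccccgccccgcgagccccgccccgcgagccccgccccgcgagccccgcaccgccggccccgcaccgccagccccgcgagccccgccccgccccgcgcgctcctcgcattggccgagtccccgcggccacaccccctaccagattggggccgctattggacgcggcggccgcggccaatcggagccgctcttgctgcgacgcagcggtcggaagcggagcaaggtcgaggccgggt
MRPL52: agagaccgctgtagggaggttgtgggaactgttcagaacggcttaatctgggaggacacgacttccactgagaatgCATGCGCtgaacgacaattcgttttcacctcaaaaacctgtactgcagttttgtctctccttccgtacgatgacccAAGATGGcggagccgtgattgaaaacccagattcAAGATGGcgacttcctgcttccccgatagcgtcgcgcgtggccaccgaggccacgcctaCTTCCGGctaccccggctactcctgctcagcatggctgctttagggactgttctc
MRPL36: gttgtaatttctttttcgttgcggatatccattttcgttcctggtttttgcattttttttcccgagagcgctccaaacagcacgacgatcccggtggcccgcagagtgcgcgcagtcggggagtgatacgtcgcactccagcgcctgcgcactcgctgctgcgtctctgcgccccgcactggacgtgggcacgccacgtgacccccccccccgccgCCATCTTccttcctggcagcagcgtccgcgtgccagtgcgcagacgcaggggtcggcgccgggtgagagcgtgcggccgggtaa

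Together the 72 genes kept a nearly constant share of the counts. They took 0.345% and 0.392% of all counts in hemizygous libraries 1 and 2, 0.377% and 0.404% in homozygous libraries and 0.378% and 0.391% in wild-type libraries. Their summed level was 3568.5 and 3838 CPM in hemizygous cells, 3833 and 3935 CPM in homozygous cells and 3855 and 3819 CPM in wild-type cells. The ranges of the 3 genotypes overlapped, and hemizygous library 1 was the lowest of the 6. The large subunit summed to 2359 and 2532 CPM in hemizygous cells, 2517.5 and 2597 CPM in homozygous cells and 2535 and 2503 CPM in wild-type cells. The small subunit summed to 1203 and 1296 CPM in hemizygous cells, 1300.2 and 1325 CPM in homozygous cells and 1312 and 1301 CPM in wild-type cells. Both subunits were thus lowest in the same library and highest in homozygous library 2.

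Gene by gene, the same 2 libraries stood at the ends. Relative to each gene's mean over the 6 libraries, the median of the 72 genes was -0.10 in hemizygous library 1, with 53 genes below their mean. It was 0.07 in homozygous library 2, with 53 genes above their mean, and between -0.00 and 0.02 in the other 4 libraries. Hemizygous library 1 held the lowest value of 39 genes, and homozygous library 2 held the highest value of 25. Hemizygous library 2, of the same genotype as the lowest library, held the lowest value of 7 genes.

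**Figure D1:**
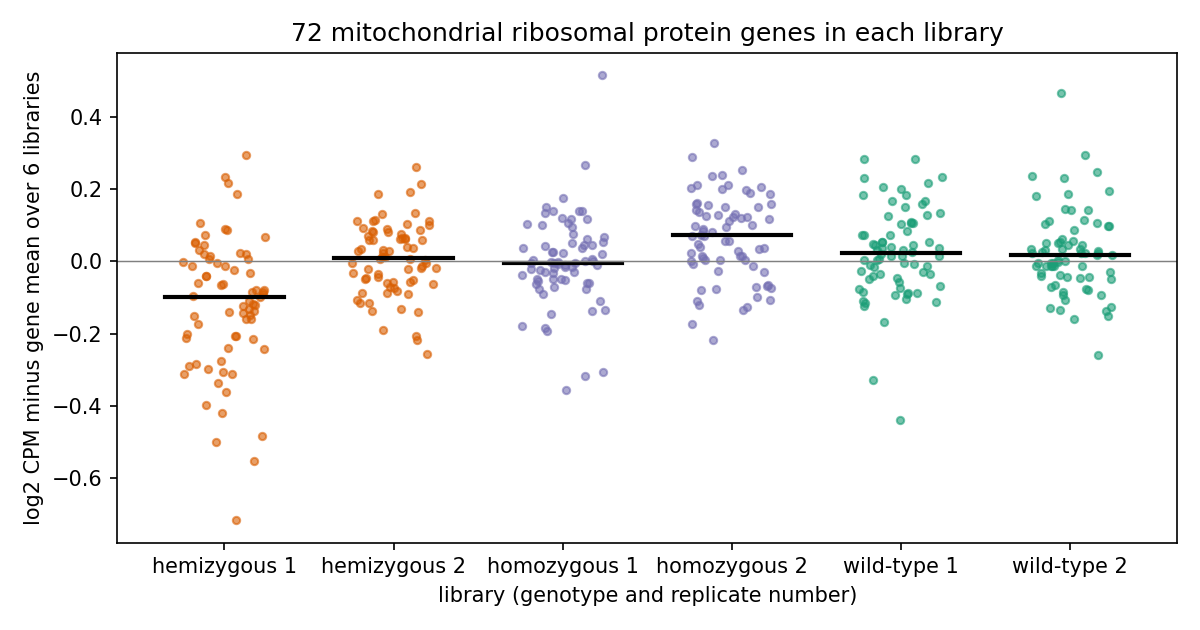
Each point is 1 of the 72 genes, with its log2 CPM minus its own mean over 6 libraries on the vertical axis and the library on the horizontal axis, and black bars are medians. The median is -0.10 in hemizygous library 1 and 0.07 in homozygous library 2, and the other 4 libraries lie between.

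Single genes moved little over the 6 libraries. The ratio of the highest to the lowest library had a median of 1.24 over the 72 genes, against 1.44 over all rows, and it was under 1.5 for 63 of them. The SD of log2 CPM over the libraries had a median of 0.115, against 0.201 over all rows and 0.171 over the 11262 rows in the same range of mean CPM. MRPL39, a large-subunit protein specific to mitochondria, had the smallest ratio at 1.06, with 38.5 and 40.6 CPM in hemizygous, 39.5 and 40.0 CPM in homozygous and 40.6 and 38.3 CPM in wild-type libraries. The genotypes overlapped at MRPL39. MRPS36 had the largest ratio at 2.35 and the largest SD at 0.499, and MRPL54, another large-subunit protein specific to mitochondria, followed with an SD of 0.297. MRPL54 had 16.1 and 28.3 CPM in hemizygous, 26.3 and 26.4 CPM in homozygous and 21.9 and 25.3 CPM in wild-type libraries, so its lowest and highest values were both in hemizygous cells. The next were MRPL12, MRPL28 and MRPL1, with SDs of 0.27, 0.267 and 0.255.

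**Figure D2:**
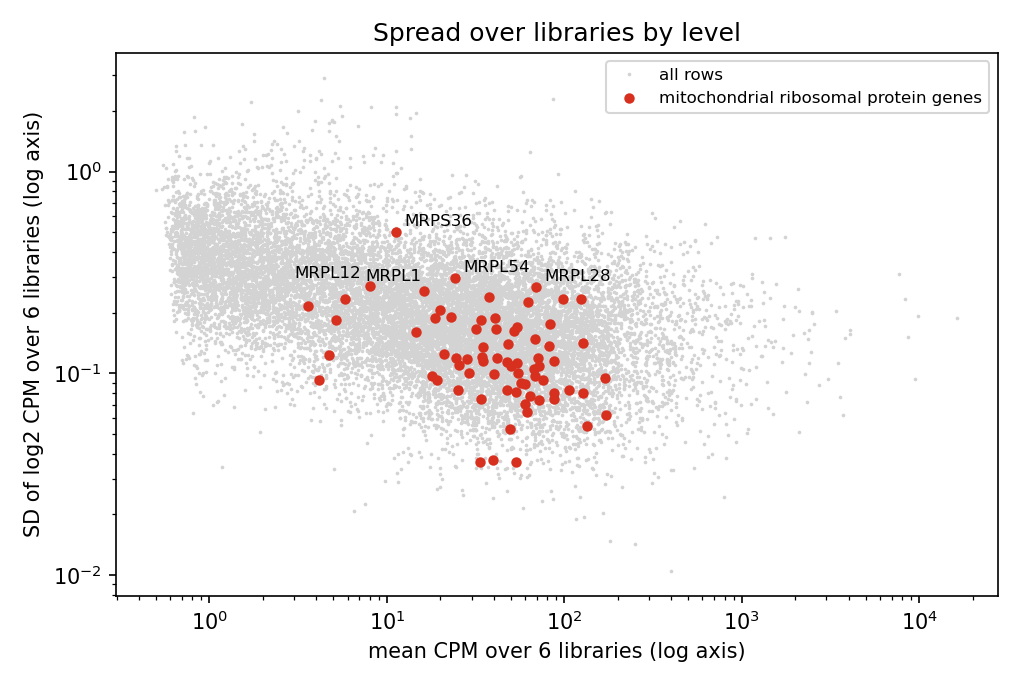
The SD of log2 CPM over 6 libraries (vertical, log axis) is plotted against mean CPM (horizontal, log axis) for all 16199 rows in grey and the 72 genes in red. Most red points lie low in the grey cloud, with a median SD of 0.115 against 0.201 over all rows, and MRPS36 lies highest of them at 0.499.

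Whether hemizygous cells differed from wild-type cells was asked with edgeR's quasi-likelihood test, with p-values adjusted over all 16199 rows by Benjamini-Hochberg and called at an adjusted p under 0.05. None of the 72 genes was called, at a background of 0% of all rows, and 0 of the 72 had an unadjusted p under 0.05, against 0.87% of all rows. DESeq2 called 0 of the 72 and 0.0432% of rows, limma-voom 0 of either, and with the replicate number as a block or 1 library left out 0 of the 72 and 0% to 0.0123% of rows (block 0.00617%). With the block, 2 members had an unadjusted p under 0.05, MRPL24 (0.017) and MRPS26 (0.0301), against 3.8% of rows. The fold change of 68 genes was under 0.25 in size, as was that of 84.5% of all rows. SEs of the 72 genes were 0.118 to 0.348 (median 0.146). The median over the 72 was -0.06, with 15 genes above 0, against a median of -0.00 and 49.1% of rows above 0. With hemizygous library 1 left out this lean was not seen, as 37 genes were above 0 and the median was 0.01. Within replicate 1 the median was -0.13, and within replicate 2 it was -0.01. Libraries of the 2 genotypes did not overlap at 14 genes, 2 higher and 12 lower in hemizygous cells, which is 19.4% of the members against a background of 17.3% of rows (8.13% higher and 9.21% lower).

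Among the 12 lower genes, MRPL24, the counterpart of the bacterial L24 protein, had the smallest p. It had 15.4 and 18.0 CPM in hemizygous cells, against 20.0 and 21.8 CPM in wild-type cells. Both hemizygous libraries were below both wild-type ones, with a fold change of -0.33 (SE 0.167, unadjusted p = 0.0943, edgeR adjusted p = 1). MRPL36, the counterpart of bacterial L36, had 17.0 and 16.6 CPM in hemizygous cells, against 19.4 and 19.4 CPM in wild-type cells. MRPL12, whose protein forms the flexible stalk of the large subunit that contacts translation factors, had 5.63 and 7.71 CPM in hemizygous cells, against 7.73 and 9.34 CPM in wild-type cells. The gap at MRPL12 between the nearest libraries of the genotypes was small, and its fold change of -0.35 had an SE of 0.237. MRPL21 (-0.18), MRPL17 (-0.18), MRPL48 (-0.16), MRPS2 (-0.18) and MRPS28 (-0.20) also did not overlap, and none of them passed the test.

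At the 2 genes that were higher in both hemizygous libraries, differences were smaller. MRPL42 had 169.3 and 178.7 CPM in hemizygous cells, against 158.4 and 169.2 CPM in wild-type cells. MRPL44, whose protein belongs to the ribonuclease III superfamily, as Dicer does, had 63.8 and 63.9 CPM in hemizygous cells, against 63.2 and 58.3 CPM in wild-type cells. The libraries nearest each other were almost equal at both genes, with fold changes of 0.09 (SE 0.121) and 0.07 (SE 0.126). MRPS31 (0.11) and MRPS35 (0.09), the others with the smallest p among genes above 0, overlapped between genotypes.

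Homozygous cells were compared with wild-type cells in the same model. None of the 72 genes was called by edgeR, at a background of 0% of all rows, 0 had an unadjusted p under 0.05, against 2.69% of all rows. DESeq2 called 0 of the 72 and 0.0617% of rows, limma-voom 0 of either, and with 1 library left out edgeR called 0 of the 72 and at most 0.00617% of rows. The median fold change was 0.01 with 39 genes above 0, against -0.00 and 49.3% for all rows. In size 71 genes were under 0.25, as were 72.9% of all rows. Within replicate 1 the median was -0.03, and within replicate 2 it was 0.05. Libraries did not overlap at 17 genes, 10 higher and 7 lower in homozygous cells, which is 23.6% of the members against 27.9% of rows (14.2% higher and 13.6% lower).

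MRPS25, a small-subunit protein specific to mitochondria, had the smallest p of this comparison. It had 73.1 and 74.8 CPM in homozygous cells, against 64.8 and 63.2 CPM in wild-type cells. Both homozygous libraries were above both wild-type ones and also above both hemizygous ones (63.8 and 65.8 CPM). The fold change over wild-type was 0.21 (SE 0.119, unadjusted p = 0.125, edgeR adjusted p = 1). MRPS31, also of the small subunit, had 35.3 and 37.7 CPM in homozygous cells, against 31.7 and 32.5 CPM in wild-type cells. MRPL40 (0.19), MRPL51 (0.15), MRPL47 (0.14), MRPL44 (0.13), MRPL42 (0.10) and MRPS23 (0.09) were higher in both homozygous libraries too, without passing the test.

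On the lower side MRPL17, the counterpart of bacterial L17, led. It had 30.5 and 35.1 CPM in homozygous cells, against 37.8 and 38.3 CPM in wild-type cells, a fold change of -0.21 (SE 0.141, unadjusted p = 0.175). Hemizygous cells, with 31.5 and 35.6 CPM, lay below the wild-type libraries as well, but both comparisons share the wild-type libraries. MRPS7 and MRPS2, counterparts of bacterial S7 and S2, had fold changes of -0.16 and -0.15, followed by MRPL36 (-0.11), MRPS17 (-0.08), MRPL20 (-0.07) and MRPS27 (-0.06). None of these passed the test.

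Homozygous cells set against hemizygous cells leaned the other way from the hemizygous comparison, with which they share the hemizygous libraries. None of the 72 genes was called by edgeR, at a background of 0% of all rows, 0 had an unadjusted p under 0.05, against 0.765% of all rows. DESeq2 called 0 of the 72 and 0.0617% of rows, limma-voom 0 of either, the block 0 and 0.00617%, and edgeR with 1 library left out 0 and at most 0.0185%. With the block, 3 members had an unadjusted p under 0.05, MRPL41 (0.00889), MRPS36 (0.0178) and MRPS34 (0.0332), against 8.2% of rows. The median fold change was 0.07 with 55 genes above 0, against -0.00 and 49.9% for all rows. In size 68 genes were under 0.25, as were 75.3% of all rows. Without hemizygous library 1 the median was 0.03 with 44 genes above 0, and without homozygous library 1 the median was 0.13. Within replicate 1 the median was 0.11, and within replicate 2 it was 0.04. Libraries did not overlap at 11 genes, all higher in homozygous cells, which is 15.3% of the members against 21.4% of rows (11% higher and 10.4% lower).

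MRPS36 had the largest difference of any member in the genotype comparisons. It had 15.4 and 12.8 CPM in homozygous cells, against 6.54 and 10.2 CPM in hemizygous cells and 7.92 and 14.8 CPM in wild-type cells. Homozygous and hemizygous libraries did not overlap, but the wild-type libraries spanned nearly the whole range. The fold change of homozygous over hemizygous cells was 0.75 (SE 0.349, unadjusted p = 0.0717, edgeR adjusted p = 0.999). MRPL12 had 9.47 and 8.03 CPM in homozygous cells, against 5.63 and 7.71 CPM in hemizygous cells, a fold change of 0.39 (SE 0.237). MRPS25 (0.19), MRPL48 (0.18), MRPS23 (0.17), MRPL47 (0.16), MRPL21 (0.14) and MRPL36 (0.10) had smaller differences, and none passed the test. The smallest p among genes lower in homozygous cells belonged to MRPL19, MRPS10 and MRPS35, at -0.18, -0.07 and -0.07, and at all 3 the libraries of the genotypes overlapped.

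**Figure D3:**
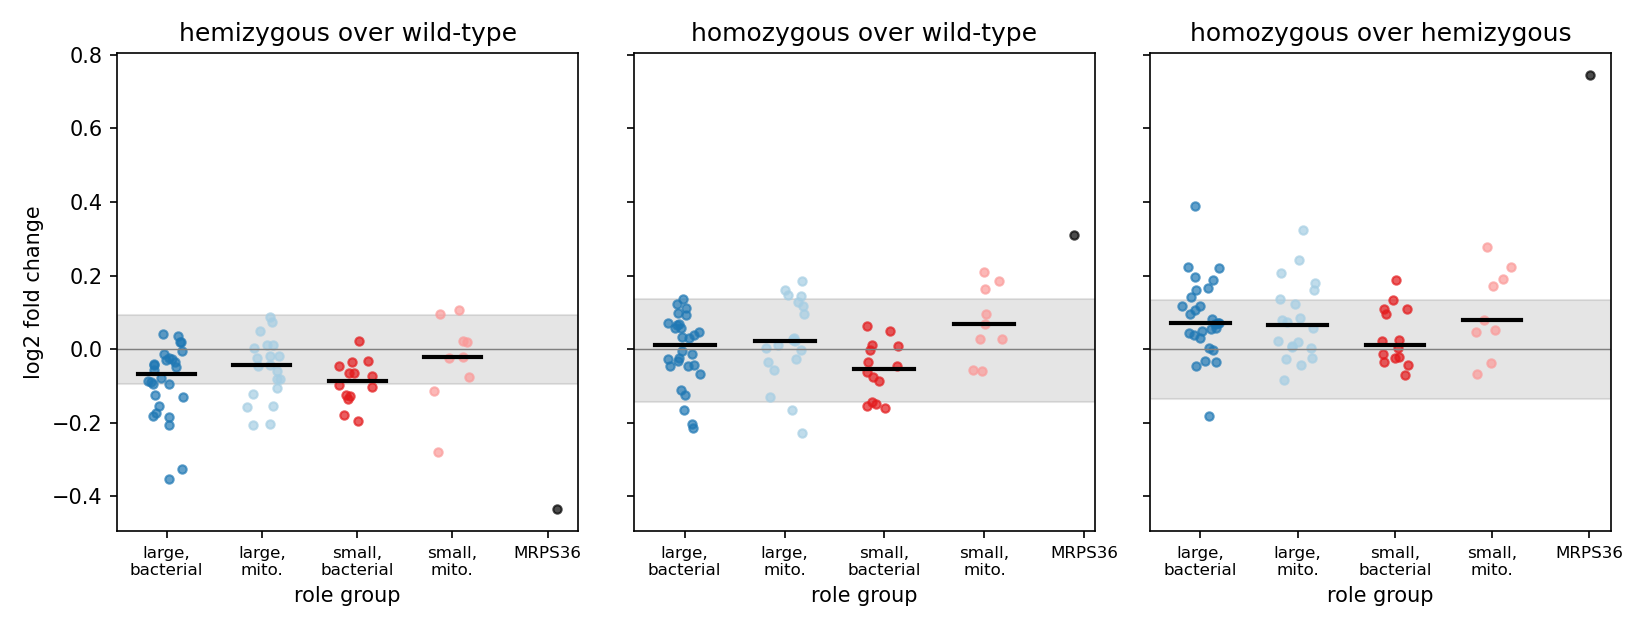
Each point is the log2 fold change of 1 gene (vertical axis), grouped by subunit and origin on the horizontal axis, in panels for hemizygous over wild-type, homozygous over wild-type and homozygous over hemizygous cells. Black bars are group medians and the grey band spans the middle quartiles of all rows. Most points lie within 0.25 of 0, and MRPS36 lies farthest from 0 in the third panel, at 0.75.

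**Figure D4:**
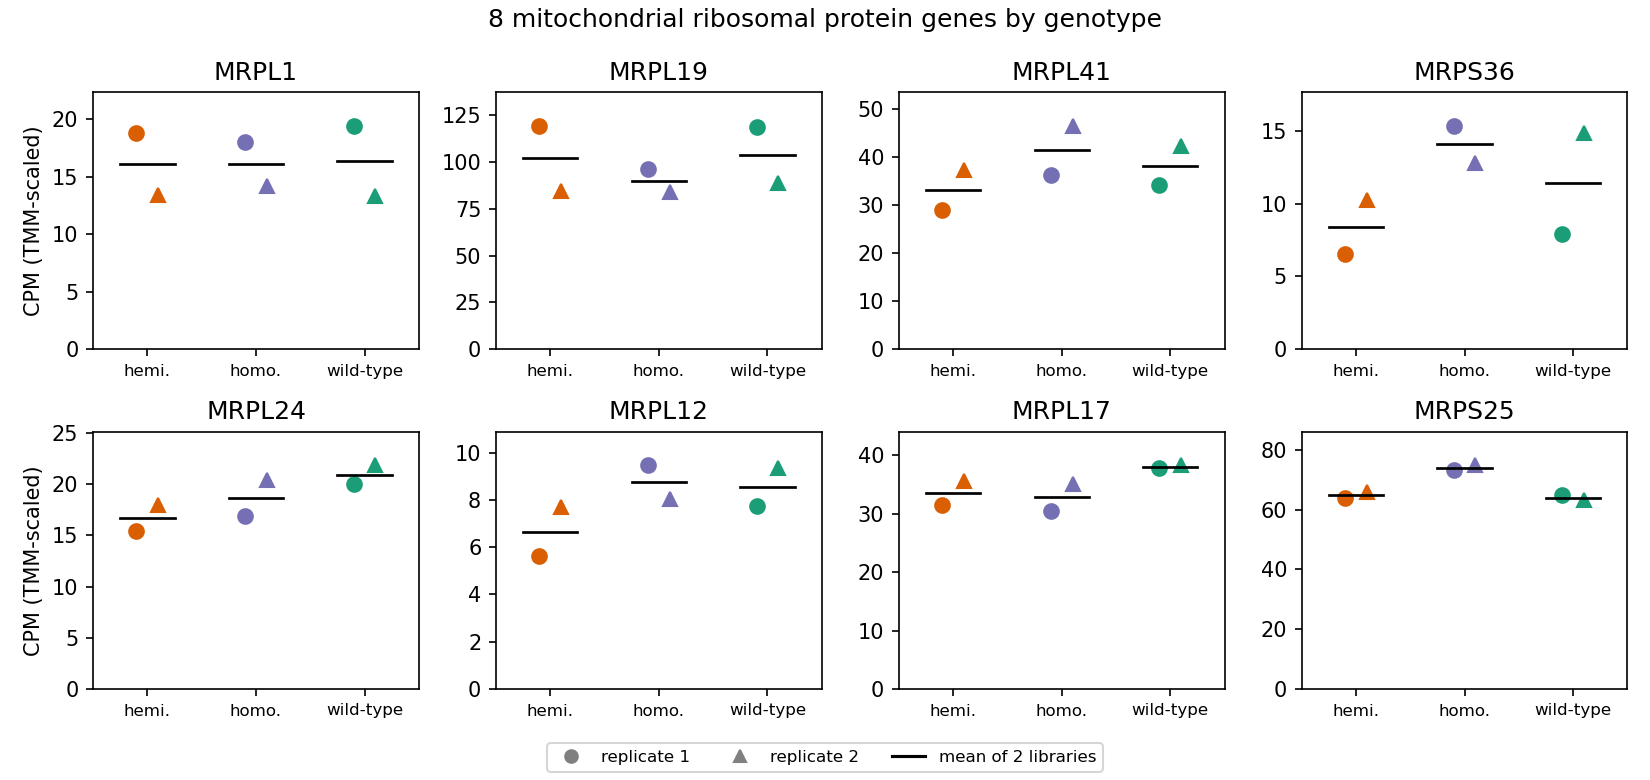
TMM-scaled CPM of 8 genes is plotted on a vertical axis from 0 for hemizygous, homozygous and wild-type cells, with circles for replicate 1, triangles for replicate 2 and a bar for the mean of the 2 libraries. At MRPL1 and MRPL19 the circle is above the triangle in every genotype, and at MRPL41 it is below.

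The subunits and origins differed little in the genotype comparisons, and no difference between these groups was tested. For hemizygous over wild-type cells the median was -0.05 over the large subunit (10 of 48 above 0) and -0.07 over the small subunit (5 of 23 above 0). For homozygous over wild-type cells it was 0.02 (27 of 48 above 0) and -0.00 (11 of 23 above 0). By origin, small-subunit proteins with a bacterial counterpart had a median of -0.05 for homozygous over wild-type cells, with 4 of 14 above 0, and those specific to mitochondria had 0.07, with 7 of 9 above 0. For homozygous over hemizygous cells the medians of these groups were 0.01 and 0.08. The large-subunit groups had 0.07 and 0.06.

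Members with a particular history or role were not equally steady. MRPL12 and MRPL44, also named by role, are described above, with SDs of log2 CPM of 0.27 and 0.078. MRPS18A and MRPS18C encode proteins of the same S18 family that sit in the large and the small subunit. MRPS18A had 32.0 and 34.0 CPM in hemizygous, 34.0 and 33.1 CPM in homozygous and 33.0 and 34.2 CPM in wild-type libraries, and the genotypes overlapped. MRPS18C had 17.3 and 19.3 CPM in hemizygous, 18.5 and 20.9 CPM in homozygous and 19.5 and 19.6 CPM in wild-type libraries, with both hemizygous libraries just below the wild-type ones (-0.10, SE 0.147). MRPS30 had 92.3 and 73.6 CPM in hemizygous, 88.0 and 74.7 CPM in homozygous and 84.1 and 76.1 CPM in wild-type libraries, so that its libraries parted by replicate number and not by genotype. MRPS22, a small-subunit protein in which inherited changes cause mitochondrial disease, had 36.5 and 43.4 CPM in hemizygous, 43.1 and 39.4 CPM in homozygous and 38.1 and 40.5 CPM in wild-type libraries, which overlapped.

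Only the replicate numbers gave called members. The labels do not say what the numbers 1 and 2 stand for, and the model compared the 3 libraries numbered 1 with the 3 numbered 2 with genotype as a covariate. edgeR called 3 of the 72 genes, MRPL1 and MRPL19 higher and MRPL41 lower in replicate 1. This is 4.17% of the members, against a background of 20.5% of all rows (12% higher and 8.5% lower) and 22.4% of rows in the same range of mean CPM. An unadjusted p under 0.05 was reached by 15 members (20.8%), against 38.6% of rows. The median over the 72 was -0.06 with 24 genes above 0, against -0.00 and 49.8% for all rows. With upper-quartile scaling in place of TMM, 10 members were called, 2 higher and 8 lower, against 21.3% of rows, and the median was -0.14. Members called numbered 9 by library size only (20.4% of rows), 6 by DESeq2 (19.6%), 4 by RLE factors (20.3%) and 3 by limma-voom (21.1%). Libraries of the 2 numbers did not overlap at 26 genes, 9 higher and 17 lower in replicate 1, which is 36.1% of the members against 39.6% of rows (20.9% higher and 18.7% lower).

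MRPL1, whose bacterial counterpart forms the mobile stalk near the exit site of transfer RNA, had the largest called difference. It had 18.8 CPM in replicate 1 and 13.4 CPM in replicate 2 of hemizygous cells, 18.0 and 14.2 CPM in homozygous cells and 19.5 and 13.4 CPM in wild-type cells. All 3 libraries numbered 1 were above all 3 numbered 2, and the genotypes overlapped. The fold change was 0.46 (SE 0.0949, edgeR adjusted p = 0.0215). MRPL19, the counterpart of bacterial L19, had 119.6 and 84.5 CPM in hemizygous, 96.1 and 83.9 CPM in homozygous and 118.6 and 88.8 CPM in wild-type cells, replicate 1 before replicate 2. Its lowest value in replicate 1 was above its highest in replicate 2, with a fold change of 0.37 (SE 0.0853, edgeR adjusted p = 0.0272). MRPL41, a large-subunit protein specific to mitochondria, had 28.9 and 37.2 CPM in hemizygous, 36.3 and 46.5 CPM in homozygous and 34.1 and 42.2 CPM in wild-type cells. Replicate 1 was lower in every genotype and below all libraries of replicate 2, with a fold change of -0.34 (SE 0.0749, edgeR adjusted p = 0.0245).

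These 3 calls were lost without hemizygous library 1 or 2, where 0.00617% and 0.0185% of rows were called, and without wild-type library 1 or 2, where 7.04% and 6.65% were called. The fold changes stayed in their direction with any 1 library left out, at 0.41 to 0.52 for MRPL1, 0.29 to 0.46 for MRPL19 and -0.37 to -0.33 for MRPL41. Without homozygous library 1 or 2, 15 members were called each time, against 38.7% and 38.6% of rows. The RefSeq spans of MRPL1 (chr4:77862830-77952785), MRPL19 (chr2:75646783-75662206) and MRPL41 (chr9:137551879-137552555), all on the plus strand of GRCh38.p14, each overlap another annotated gene. The overlap is with LOC102724916, SUPT4H1P1 and LOC124902317, and since the use of strand in counting is not given, reads of the overlapping genes cannot be told apart. Of the 72 genes 30 overlap another gene. Among the 42 that overlap none, 0 were called with TMM, 4 with upper-quartile factors (MRPL22, MRPL52, MRPS21 and MRPS26), 3 with library size only (the first, second and last of these) and 1 with DESeq2 (MRPS26). The shares of all rows called were 20.5%, 21.3%, 20.4% and 19.6% in the same order.

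The gap between replicate numbers was not of 1 size in the 3 genotypes. Over the 72 genes the median of replicate 1 minus replicate 2 was -0.13 in hemizygous cells, with 22 genes above 0, -0.08 in homozygous cells, with 27 above 0, and -0.00 in wild-type cells, with 36 above 0. MRPL41 had similar gaps in the 3 genotypes, at -0.36, -0.36 and -0.31. At MRPL28, the counterpart of bacterial L28, the gap was -0.68 in hemizygous, -0.10 in homozygous and -0.28 in wild-type cells. MRPS34, a small-subunit protein specific to mitochondria, had gaps of -0.51, -0.11 and -0.31, and its fold change of -0.31 did not pass the test (edgeR adjusted p = 0.0538). MRPS36 had gaps of -0.64 and -0.90 in hemizygous and wild-type cells but 0.26 in homozygous cells, so no direction was shared. Whether gaps differed between genotypes was not tested.

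**Figure D5:**
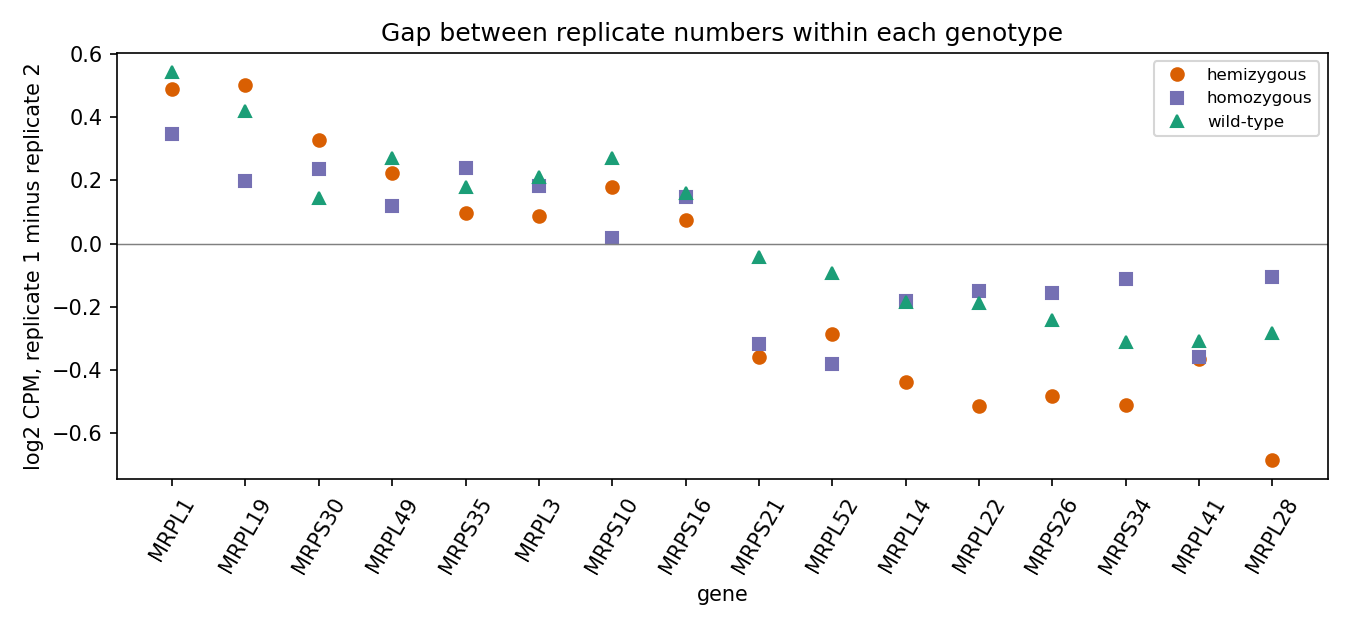
For 16 genes on the horizontal axis, ordered by their fold change between replicate numbers, the vertical axis gives log2 CPM of replicate 1 minus replicate 2 in hemizygous (circles), homozygous (squares) and wild-type (triangles) cells. MRPL1, at 0.49, 0.35 and 0.54, is above 0 in every genotype and MRPL41, at -0.36, -0.36 and -0.31, below.

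Other members with the smallest p between replicate numbers did not pass the test. Higher in replicate 1 were MRPS30 (0.24), MRPL49 (0.21), MRPS35 (0.17), MRPL3 (0.16), MRPS10 (0.16) and MRPS16 (0.13). Lower in replicate 1 were MRPL28 (-0.36), MRPS26 (-0.29), MRPL22 (-0.28), MRPL14 (-0.27), MRPL52 (-0.25) and MRPS21 (-0.24). Across the 72 genes this fold change had a Pearson r of 0.41 and a Spearman rho of 0.383 with the log of the gene's span. Across 13088 protein-coding rows the values were 0.298 and 0.337. For hemizygous over wild-type cells they were 0.306 and 0.354 over the 72 genes (rows 0.139 and 0.2). For homozygous over wild-type cells they were 0.0244 and 0.0647 (rows -0.164 and -0.216). For homozygous over hemizygous cells they were -0.217 and -0.199 (rows -0.295 and -0.373). With the percentage of G and C in the 65 promoter windows, the replicate fold change had a Pearson r of -0.298 and a rho of -0.252. Across 10691 protein-coding rows with a window these were -0.0382 and -0.0265. All these genes share the same 6 libraries and their depth, so the correlations are descriptions across genes.

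The partners of these proteins were measured in the same libraries. The mitochondrial ribosomal proteins with other symbols are DAP3, PTCD3, AURKAIP1, CHCHD1 and GADD45GIP1. Of these 5, 0 were called in the genotype comparisons, against 0% of rows, and 0 between replicate numbers, against 20.5% of rows. GADD45GIP1, a large-subunit protein, had 46.6 and 71.3 CPM in hemizygous, 77.9 and 76.7 CPM in homozygous and 53.5 and 71.8 CPM in wild-type cells. Its homozygous libraries lay above all others, without passing the test (0.30 over wild-type, SE 0.235). Homozygous libraries lay above wild-type ones without overlap at this 1 of the 5 genes, against 14.2% of rows. For homozygous over wild-type cells 3 of the 5 were above 0 and 2 below. Of the mitochondrial ribosomal RNAs, MT-RNR1 of the small subunit had 818 and 894 CPM in hemizygous, 808 and 1004 CPM in homozygous and 854 and 999 CPM in wild-type cells. MT-RNR2 of the large subunit had 6450.4 and 8624 CPM in hemizygous, 8683 and 9164 CPM in homozygous and 5267 and 8063 CPM in wild-type cells. Neither RNA was called, against 0% of rows between genotypes and 20.5% between replicate numbers. The genotypes overlapped at MT-RNR1, and homozygous libraries were the highest at MT-RNR2.

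Genes that assemble the ribosome or work with it were called between replicate numbers only in part. Of 22 measured assembly genes out of 23 listed, 0 were called between genotypes, against 0% of rows. Between replicate numbers 1 was called, FASTKD2, higher in replicate 1 (0.40, edgeR adjusted p = 0.0229), which is 4.55% of them against 20.5% of rows. FASTKD2 binds the large ribosomal RNA of mitochondria. MRM1, which methylates that RNA, had 3.30 and 1.21 CPM in homozygous cells, against 0.626 and 0.626 CPM in hemizygous and 0.540 and 0.921 CPM in wild-type cells, at 24 to 150 counts per library. Both homozygous libraries were the highest, with an unadjusted p of 0.0194 and an edgeR adjusted p of 1 against wild-type. Homozygous libraries lay above wild-type ones without overlap at 3 of the 22 assembly genes (13.6%), against 14.2% of rows. Of 16 translation factors and partners, 0 were called between genotypes, against 0% of rows. Called higher in replicate 1 were 3 of them. These were GFM1, an elongation factor (0.50, edgeR adjusted p = 0.0127), GUF1, the relative of bacterial LepA (0.36, edgeR adjusted p = 0.0258), and MTRF1L, a release factor (0.44, edgeR adjusted p = 0.0201). These 3 are 18.8% of the list, near the 20.5% of rows called.

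The cytosolic ribosomal proteins, which build the ribosomes that make the mitochondrial ones, had a wider spread between libraries. Their summed level over 80 measured genes was 45994 and 61951 CPM in hemizygous, 58216 and 64850 CPM in homozygous and 52257 and 57893 CPM in wild-type cells. Hemizygous library 1 was again the lowest and homozygous library 2 the highest. For homozygous over wild-type cells 73 of the 80 were above 0 (median 0.17), beside 39 of the 72 mitochondrial ones (0.01). Over all rows 49.3% were above 0 (median -0.00), and edgeR called 0 of either list and 0% of rows. For homozygous over hemizygous cells 75 of 80 were above 0 (median 0.20), beside 55 of 72 (0.07) and 49.9% of rows (-0.00). Between replicate numbers 17 of the cytosolic genes were called, 1 higher and 16 lower in replicate 1, beside 3 of the mitochondrial ones, which is 21.2% and 4.17% of the lists against 20.5% of all rows. The difference between the lists was not tested.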

How the data were processed

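iCLIP of Ago2 was made from 6 libraries, 2 per genotype. The authors deposited whole-number, unnormalised read counts per gene in 1 table. The build is hg38, per the submitters' processing notes. Which aligner, counter and annotation were used, and whether strand or molecular identifiers were considered, is not given in the sources used here. Each column was matched to its library through the sample description, and 0 columns were left unused. The lowest row total was 132, and edgeR's filterByExpr kept all 16199 rows. IgG controls and input RNA were not used here.

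edgeR 4.0.16 (R 4.3.3) fitted 3 genotype means to the 6 libraries with TMM factors and quasi-likelihood F tests, and Benjamini-Hochberg adjustment ran over all rows. A second model tested replicate number with genotype as a covariate. SEs are the size of the fold change over the square root of F. Log2 CPM used a prior count of 2. The scripts were tested on simulated data. In the genotype comparisons they called 34% to 40% of rows changed by 1 log2 unit and 80% to 89% of rows changed by 2. Between replicate numbers these shares were 53% and 94%. The simulated spread came from the model with genotype alone, and no effect shared by same-numbered libraries was simulated. The shares between replicate numbers therefore need not hold for the test on the real libraries. Of the unchanged rows, 3 to 13 were called between genotypes and 17 between replicate numbers. Alternatives were other scalings, no filter, DESeq2 1.42.0, limma 3.58.1 voom, replicate block, and each library left out. 2 alternatives, leaving out MRPS36 and keeping members that overlap no other gene, were chosen after seeing the data.

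The members and lists were chosen with earlier results of these data known. Members were named by non-overlap between genotypes with the smallest p (up to 8 per direction), by smallest p between replicate numbers (up to 8 per direction), by the 5 largest SDs, and by role. A further rule, by level per kilobase of coding length, could not be applied without coding lengths, so members were not ranked by level. The summed levels of the marker lists are adjusted neither for gene length nor for the number of genes measured. MRPL39, MRPL44 in the hemizygous comparison, and the 4 promoters were chosen after their values were seen. Genes of the other lists shown with values, such as GADD45GIP1 and MRM1, fall under none of these naming rules. Promoters and coordinates are RefSeq's (GRCh38.p14).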

Additional observations from a re-analysis of the deposited data

How the results depend on the processing

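In the 3 genotype comparisons 0 members were called under every alternative run, DESeq2, limma-voom and the replicate block included. Members above 0 for hemizygous over wild-type cells numbered 14 to 37 with 1 library left out, 37 being without hemizygous library 1, and the median ranged over -0.11 to 0.01. For homozygous over wild-type cells these ranges were 29 to 42 and -0.02 to 0.04, and for homozygous over hemizygous cells 44 to 55 and 0.033 to 0.131. Upper-quartile factors gave 48 above 0 (median 0.04) for homozygous over wild-type cells and 60 (median 0.09) for homozygous over hemizygous cells. Between replicate numbers, leaving out 1 library gave 0 to 15 called members, against 0.00617% to 38.7% of rows. Members above 0 then numbered 16 to 30, with medians of -0.10 to -0.03. The 3 members called there became 10 with upper-quartile factors (2 higher, 8 lower), 9 with library size only (2 higher, 7 lower), 6 with DESeq2, 4 with RLE factors and 3 with limma-voom. Of the 42 members that overlap no other gene, 0, 4, 3, 1, 0 and 0 were called with TMM, upper-quartile factors, library size only, DESeq2, RLE factors and limma-voom. The shares of all rows called were 20.5%, 21.3%, 20.4%, 19.6%, 20.3% and 21.1% in the same order. The causes of the changes with scaling and tool were not tested. Members above 0 there numbered 14 with upper-quartile factors and 15 with library size only, with medians of -0.14 and -0.13. With plain CPM the summed level was 4040 in homozygous library 2 and 3778 and 3912 in wild-type libraries 1 and 2, against 3935, 3855 and 3819 with TMM. Of 53 values of single genes, 4 changed sign with a library left out, with ranges of -0.41 to 0.092 (MRPL19), -0.16 to 0.024 (MRPS10) and -0.19 to 0.046 (MRPS35) for homozygous over hemizygous cells and -0.028 to 0.24 (MRPS31) for hemizygous over wild-type cells. All of these were uncalled.

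The labels do not say what the replicate numbers mark, and each comparison holds only 2 of them, so they were not taken as pairs. Deviations of same-numbered libraries correlated over all rows at 0.741 (hemizygous with wild-type), 0.357 (homozygous with wild-type) and 0.476 (homozygous with hemizygous), all positive. With replicate number as a block 0 members were called in each genotype comparison, and 15, 39 and 54 were above 0 for hemizygous over wild-type, homozygous over wild-type and homozygous over hemizygous cells. The block gave 2, 0 and 3 members with an unadjusted p under 0.05 in these comparisons, against 3.8%, 12% and 8.2% of rows and 0 members in each without it, and its median SE was 0.105 against 0.146. With 2 libraries per genotype, 0 called members does not show that the genotypes had equal levels.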

Other observations

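Of 10 regulators of mitochondrial genes, 0 were called by edgeR in the genotype comparisons, against 0% of rows. Between replicate numbers 5 were called, 4 higher and 1 lower in replicate 1, against 20.5% of all rows. TFAM, which packages and transcribes mitochondrial DNA, had 141.5 and 87.8 CPM in hemizygous, 108.9 and 81.6 CPM in homozygous and 132.2 and 88.7 CPM in wild-type cells, replicate 1 before replicate 2. All libraries numbered 1 were above all numbered 2 (0.56, SE 0.0819, edgeR adjusted p = 0.0122). ESRRA, a nuclear receptor that drives mitochondrial genes, had 31.3 and 40.4 CPM in hemizygous, 36.0 and 41.5 CPM in homozygous and 33.2 and 42.3 CPM in wild-type cells and was lower in replicate 1 (-0.31, edgeR adjusted p = 0.0365). Of the factors whose letters were searched in the promoters, GABPB1, a subunit of GABP, was higher in replicate 1 (0.34, edgeR adjusted p = 0.0272). GABPA, its partner, YY1 and NRF1 were not called (edgeR adjusted p = 0.184, 0.0981 and 0.78).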
